A study of Homo sapiens with 14 samples.

Results

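The genes described here are 10 components of focal adhesions, named by symbol from GENCODE release 44 and located among 19618 protein-coding genes on the autosomes and X of GRCh38 (hg38). They are the tensins TNS3, TNS1, TNS2 and TNS4, zyxin (ZYX), vinculin (VCL), talin 1 (TLN1), paxillin (PXN), focal adhesion kinase (PTK2) and filamin A (FLNA). They were chosen by name, without a threshold on any value but with earlier results of these data known, and all 10 were found. Shares over all protein-coding genes are therefore given as description only, and are not matched for gene length. Every peak region over each gene body and 10 kb, then 50 kb, either side was collected from 10 peak lists. The lists come from CUT&RUN, in which an antibody directs a nuclease to cut out the chromatin it marks, on TC-32, an established Ewing sarcoma line labelled wild type and grown without treatment. FLI1 was profiled in set A (replicates 1 and 2) and in set B (replicates 1 and 2), H3K27ac in set A (replicates 1 and 2), and H3K9me3 and H3K27me3 in set B (replicates 1 and 2 each). The other 4 of the 14 samples are IgG controls, 2 in each set. The labels do not say how the sets differ, and all libraries come from 1 cell line with no statement that replicates were separate cultures.

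Focal adhesions are protein assemblies that tie integrins, the receptors for extracellular matrix, to the actin cytoskeleton. Talin, tensins and filamin bind integrin tails, vinculin reinforces the link from talin to actin, zyxin promotes actin assembly at adhesions under tension, and paxillin and focal adhesion kinase gather signalling proteins there. Ewing sarcoma cells carry EWSR1::FLI1, a fusion transcription factor whose ETS domain recognises GGAA and also binds long runs of repeated GGAA. H3K27ac marks active promoters and enhancers, H3K9me3 marks heterochromatin, and H3K27me3 marks genes under Polycomb repression. The study mapped the fusion and these marks to ask which chromatin states the fusion lies in. A region of a FLI1 list does not by itself say which FLI1 protein was bound.

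All 10 genes had FLI1 in all 4 libraries within 10 kb, against 56.1% of all protein-coding genes. At ZYX, VCL, TLN1, PXN and PTK2 it lay at the main transcript start in every library, and at FLNA in 3 of the 4. TNS3 had no position common to the 4 libraries and no FLI1 region at its main start. PXN was dense in both FLI1 and H3K27ac. PTK2 carried H3K27ac at its start and H3K9me3 inside the gene. H3K27me3 was not called within 10 kb of any of the 10 genes in either library, against 21.9% of all genes with it in at least 1.

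The sequences around the FLI1 summits show which genes had the core GGAA (TTCC on the other strand), and where a repeat was present. They are given on the plus strand of hg38, 5′ to 3′, with every GGAA or TTCC in capitals. Each of the first 7 is the 101 bases centred on the strongest summit of the locus. The 3 TNS3 loci are its start locus found in 3 libraries (chr7:47328354-47328454) and the 2 introns with its highest percentiles of fold (chr7:47494862-47494962 and chr7:47517329-47517429). The next 4 are start loci found in all 4 libraries: ZYX (chr7:143381118-143381218), VCL (chr10:73997608-73997708), TLN1 (chr9:35732368-35732468) and FLNA (chrX:154369780-154369880).
TNS3 start: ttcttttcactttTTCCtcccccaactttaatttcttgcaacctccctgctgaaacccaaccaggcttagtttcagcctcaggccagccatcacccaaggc
TNS3 intron, first: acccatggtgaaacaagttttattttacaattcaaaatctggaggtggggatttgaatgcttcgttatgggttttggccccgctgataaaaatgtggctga
TNS3 intron, second: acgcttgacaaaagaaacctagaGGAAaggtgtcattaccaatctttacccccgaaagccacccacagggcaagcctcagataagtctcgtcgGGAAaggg
ZYX: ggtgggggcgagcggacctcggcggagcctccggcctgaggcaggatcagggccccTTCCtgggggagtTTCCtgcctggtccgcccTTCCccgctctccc
VCL: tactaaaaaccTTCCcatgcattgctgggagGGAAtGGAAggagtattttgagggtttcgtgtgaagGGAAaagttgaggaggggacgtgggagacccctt
TLN1: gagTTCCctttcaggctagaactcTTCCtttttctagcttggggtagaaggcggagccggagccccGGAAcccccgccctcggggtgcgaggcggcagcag
FLNA: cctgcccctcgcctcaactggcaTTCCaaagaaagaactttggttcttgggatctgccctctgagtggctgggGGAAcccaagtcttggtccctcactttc
The ZYX and TLN1 windows held 3 cores each, VCL 4 and FLNA 2. The TNS3 start held 1, and its intron windows held 0 (first printed) and 2 (second printed). First and second give the order of printing here, not the number of the intron. Not every start locus had a core: the stronger start locus of FLNA, not printed, held 0.

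The last sequence is the GGAA repeat in an intron of TNS1, the one run of 4 or more units among the loci of these genes within 10 kb. The 250 bases lie at chr2:218014772-218015021, and only the run of 13 uninterrupted GGAA units, at 218014871 to 218014922, is in capitals.
TNS1 repeat: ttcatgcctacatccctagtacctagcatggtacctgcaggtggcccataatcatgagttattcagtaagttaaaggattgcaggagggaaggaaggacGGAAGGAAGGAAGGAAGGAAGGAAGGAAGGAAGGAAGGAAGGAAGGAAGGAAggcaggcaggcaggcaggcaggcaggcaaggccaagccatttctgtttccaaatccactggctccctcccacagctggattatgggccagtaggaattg
Repeat length here is that of the reference genome, and the number of units in TC-32 was not measured.

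The FLI1 lists held between 29339 and 40590 regions, the H3K27ac lists 10219 and 17366, H3K9me3 36687 and 21770, and H3K27me3 21461 and 16667. The lists give no read totals, so depth is unknown and a missing region means that it was not called, not that the protein or mark was absent. Each region's fold over IgG is the authors' own value, and its percentile is its rank by fold within its own list. The known fusion targets NKX2-2, NR0B1 and CCND1 each had between 5 and 16 FLI1 regions in every library. CD99, in the pseudoautosomal part of X, had 4 and 6 in set A and 0 in both set B libraries.

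Within 10 kb, FLI1 regions were found in all 4 libraries at 10 of 10 genes, against 56.1% of all protein-coding genes. H3K27ac was found in both replicates at 8 of 10, all but TNS2 and TNS4, against 28.2%. H3K9me3 was found in both replicates at 2 of 10, TNS1 and PTK2, against 25.3%. H3K27me3 was found in both replicates at 0 of 10, against 17.6%, and in either replicate at 0 of 10, against 21.9%. Longer genes collect more regions, and the 10 genes ran from 9.82 kb (ZYX) to 344 kb (PTK2), so counts over whole genes are given beside a density per 100 kb.

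**Figure D1:**
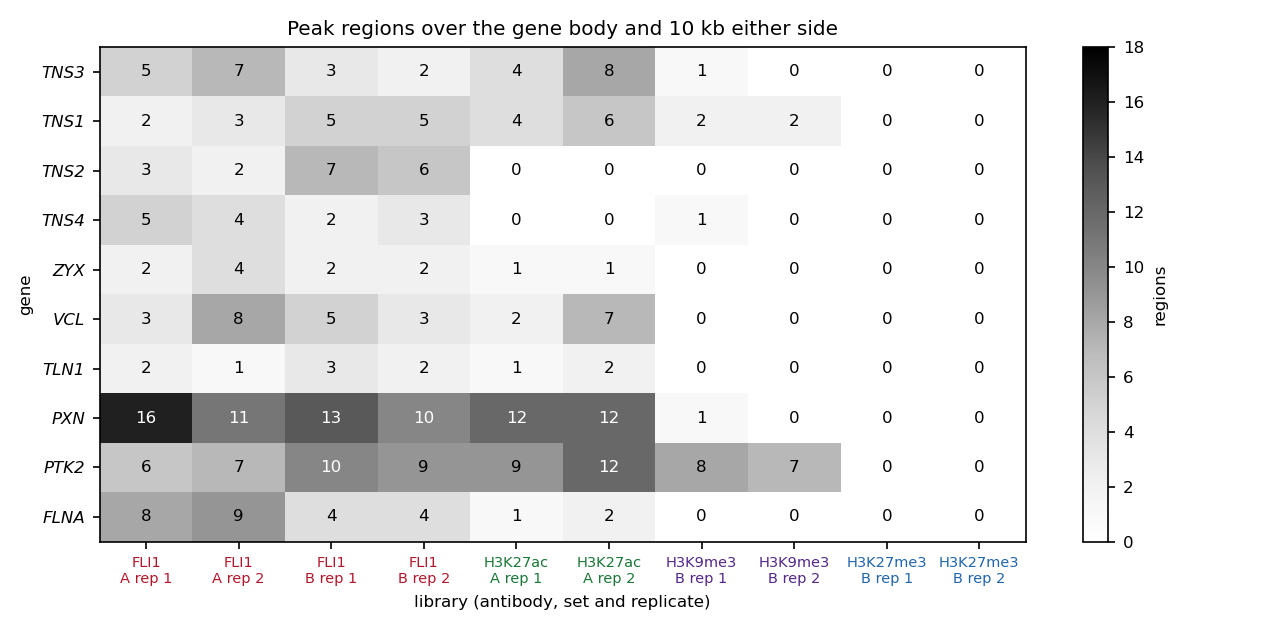
Number of peak regions over each gene body and 10 kb either side (rows, genes) in each of the 10 lists (columns, library by antibody, set and replicate), with darker cells for more regions. PXN has the highest FLI1 counts, from 10 to 16, TNS2 and TNS4 have no H3K27ac, and both H3K27me3 columns are 0 throughout.

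FLI1 lay within 1 kb of a start of a protein-coding transcript in all 4 libraries at 7 of 10 genes (TNS1, ZYX, VCL, TLN1, PXN, PTK2 and FLNA), against 38.3% of all protein-coding genes. These genes have between 1 and 32 annotated starts, and a gene with more starts has more chances to be counted. At the canonical transcript start alone, the count was 5 of 10 (ZYX, VCL, TLN1, PXN and PTK2), against 35.4%. At the outermost annotated gene start it was 4 of 10 (ZYX, TLN1, PXN and PTK2), against 33.7%. H3K27ac lay within 1 kb of a start in both replicates at 3 of 10 genes (TNS1, PXN and PTK2), against 14.9%. The start could differ between replicates, and at PXN it did. There the region at a start was 40.47 kb from the canonical start in replicate 1, against 16.13 and 0.65 kb in replicate 2. At the canonical start it was 2 of 10 (TNS1 and PTK2), against 12.4%. At any start in either replicate it was 6 of 10, against 28.2%. PTK2 was the one gene of the 10 with FLI1 in all 4 libraries and H3K27ac in both at its canonical start. H3K9me3 was at no start in both replicates (background 2.21%), nor was H3K27me3 (background 11.2%).

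TNS3, a tensin that binds integrin tails and actin, lies on the minus strand at chr7:47275154-47582558 and spans 307 kb. It had 5 and 7 (set A) and 3 and 2 (set B) FLI1 regions, with no more found out to 50 kb. Both set A counts were above both set B counts. The mean difference was 3.5 regions, with an exact two-sided permutation p of 0.333 over 2 against 2 libraries, the smallest this design allows. With only regions of a −log10 q of at least 5 the counts were 3, 6, 3 and 2, so that the sets touched. The same order over both sets was seen at TNS4 and FLNA, against 9.88% of all genes, and the reverse order at TNS1, TNS2 and PTK2, against 11.4%. Only 76.5% of all genes had FLI1 within 10 kb in any library, and the rest could not be ordered. With the same cut on q the sets also touched at TNS4 (3, 4, 2 and 3) and PTK2 (5, 7, 9 and 7). The order held at FLNA, TNS1 and TNS2.

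Where regions of different libraries overlapped they were merged into a locus, whose position is that of the merged stretch and whose fold in a library is that of its most significant region there. The TNS3 regions formed 9 loci, 6 in introns and 3 at alternative starts. None was in all 4 libraries, 2 were in 3 libraries, 3 were in both set A libraries alone, 1 was in set A replicate 2 and set B replicate 1, and 3 were in 1 library. TNS3 was the one gene of the 10 with FLI1 in every library but no locus common to them. Of all genes with FLI1 in all 4 libraries within 10 kb, 648 of 11015 (5.88%) had no common locus. The most distal locus in 3 libraries, chr7:47328323-47328746 at an alternative start, had folds of 8.8 and 7.53 in the set B replicates and 6.0 in the second of set A. The intronic locus chr7:47371802-47372459 had folds of 4.81 and 5.95 (set A) and 6.75 (set B, replicate 2). Both lie over 200 kb downstream of the main start, at 253.7 and 209.9 kb.

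The highest FLI1 fold at TNS3 was 11.4 in set B replicate 1, at the alternative start chr7:47327791-47328171, which was in no other library. The intron at chr7:47494561-47495075 had folds of 10.3 and 7.44 (percentiles 73.6 and 60.4) in set A, and was in neither set B list. The intron at chr7:47517211-47517494 had folds of 8.94 and 10.6 (percentiles 67.3 and 77.4), again with no region in set B. The strongest TNS3 region of each FLI1 library reached percentiles of 73.6 and 77.4 (set A), against 71.7 and 44 (set B). No FLI1 library ranked a TNS3 region above the 77.4th percentile of its list.

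The canonical TNS3 start was bare. The nearest FLI1 region was 45.8 and 3.0 kb away in the set A replicates, and 3.03 and 210 kb in those of set B. The region 3 kb inside the gene, chr7:47578748-47579107, was weak, with folds of 3.72 (percentile 4.0) and 5.98 (percentile 21.3). H3K27ac came nearest at 86.6 kb in replicate 1 and 4.28 kb in replicate 2.

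H3K27ac over TNS3 numbered 4 and 8 regions, all intronic but for 1 at an alternative start. At the intron near 87 kb from the start, FLI1 in both set A libraries and H3K27ac in both replicates met. There H3K27ac had folds of 4.43 in replicate 1 and 6.43 in replicate 2 (percentiles 27.8 and 89.1). The highest-ranked H3K27ac region of the gene, in replicate 2 alone, was at chr7:47497177-47497508, with a fold of 7.32 (percentile 96.3), over a FLI1 region of set A replicate 1. FLI1 and H3K27ac shared 1.11 kb of the 4.12 kb covered by FLI1 in any library at TNS3. H3K9me3 had 1 region inside TNS3 in replicate 1 (fold 4.45) and 0 in replicate 2. Upstream of the 10 kb window both replicates had an H3K9me3 region, 14.0 and 14.1 kb from the canonical start. Their folds were 5.56 and 6.11 (percentiles 84.4 and 88.8).

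**Figure D2:**
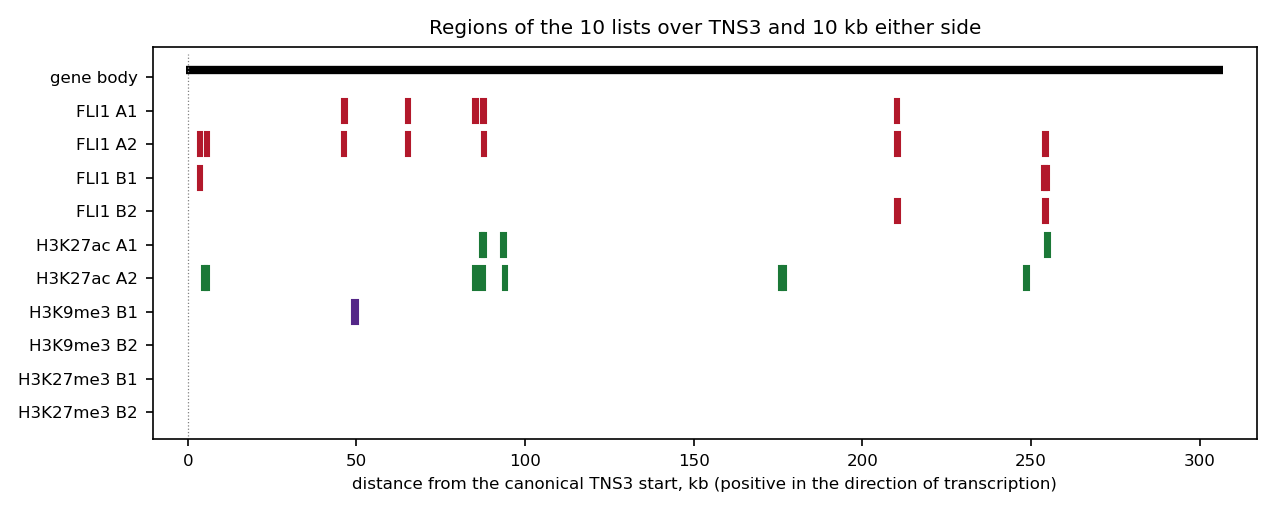
Regions of the 10 lists over TNS3 by distance from its canonical start in kb (horizontal axis, positive in the direction of transcription), with 1 row per library and the gene body in black. Short regions are widened to stay visible. No column of FLI1 regions runs through all 4 FLI1 rows, and the position of the canonical start (dotted line) has no region in any row.

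TNS1, another actin-binding tensin, lies at chr2:217799588-218033982 on the minus strand. It had 2 and 3 (set A) and 5 and 5 (set B) FLI1 regions. Of its 5 loci, 2 were in all 4 libraries. The intronic one over the GGAA repeat, chr2:218014051-218016526, had folds of 47.3 and 38.8 (set A), against 14.0 and 5.6 (set B). Its percentiles were 98.0 and 97.2 in set A against 80.5 and 17.0 in set B, so that both set A ranks were above both set B ranks. The summits stood 228, 228, 158 and 179 bp past the end of the run, not on it. The other, at an alternative start 8.3 kb upstream of the canonical one, had folds of 9.03, 11.5, 8.2 and 8.54. The set B values are those of regions that end before the set A replicate 1 region begins. The set B regions that overlap it had folds of 6.81 and 6.12 (percentiles 34.4 and 24.8, against 68.0 and 79.8 in set A).

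H3K27ac at TNS1 lay elsewhere. Both replicates had a region within 1 kb of the canonical start, at 0.932 kb in replicate 1 and 0.455 kb in replicate 2, although these 2 regions did not overlap each other. Their folds were 6.91 and 4.46 (percentiles 94.8 and 31.0). The nearest FLI1 region to that start was 7.83 and 7.72 kb away (set A) or 7.15 and 5.26 kb (set B). A start 65.3 to 66.1 kb downstream also had H3K27ac in both replicates and no FLI1. FLI1 and H3K27ac shared 0.2 kb at TNS1, of 5.79 kb covered by FLI1. H3K9me3 had 2 regions in each replicate, 1 pair in an intron and 1 pair upstream.

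TNS2, at chr12:53046969-53064379 on the plus strand, is a short tensin gene of 17.4 kb. It had 3 and 2 (set A) and 7 and 6 (set B) FLI1 regions, and both set B counts were above both set A counts. Its 6 loci included 3 found in both set B libraries and in no set A library, and 2 in all 4. The exonic shared locus chr12:53054211-53054809 had folds of 10.5 and 12.3 (set A), against 25.5 and 12.6 (set B). The shared locus downstream, chr12:53071743-53072650, ran the other way, with folds of 29.7 and 18.1 (set A), against 8.8 and 6.1 (set B). At the canonical start FLI1 was in both set B libraries (0 kb) and in neither of set A, where the nearest regions were 3.11 and 4.18 kb away. H3K27ac, H3K9me3 and H3K27me3 had 0 regions in all their libraries within 10 kb.

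TNS4 encodes a tensin that lacks the actin-binding part of its relatives. The gene lies at chr17:40475828-40501623 on the minus strand. It had 5 and 4 (set A) and 2 and 3 (set B) FLI1 regions, and no H3K27ac. Neither of its 2 starts had FLI1 within 1 kb, and the nearest regions were 2.26, 1.75, 1.75 and 1.99 kb inside the gene. That locus, chr17:40499157-40499878, was found in all 4 libraries with folds of 5.08, 7.39, 12.6 and 9.94. The intronic locus chr17:40485825-40486878 was higher in 3 of the 4, with folds of 12.7, 9.92, 17.2 and 6.57. H3K9me3 had 1 region, upstream, in replicate 1 and 0 in replicate 2. None of the 4 tensins had FLI1 at the canonical start in every library, as at FLNA, and 35.4% of all genes did.

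ZYX, the zyxin gene, lies at chr7:143381295-143391111 on the plus strand. It had 2 and 4 (set A) and 2 and 2 (set B) FLI1 regions. The locus at the start, chr7:143380367-143381492, was in all 4 libraries, with folds of 9.03 and 8.93 (set A, percentiles 68.0 and 70.7) and 19.9 and 11.7 (set B, percentiles 90.5 and 75.0). Both set B ranks were above both set A ranks, the reverse of the TNS1 repeat. H3K27ac had 1 region in each replicate, upstream of the start. In replicate 1 it was weak, with a fold of 3.99 (percentile 8.57), and ended 0.882 kb from the canonical start. In replicate 2 it spanned 1348 bp with a fold of 7.55 (percentile 96.9), at 1.24 kb. Both marks were adjacent rather than coincident, sharing 0.3 kb of 2.21 kb of FLI1. Out to 50 kb, ZYX had 4 and 5 H3K27me3 regions, the closest 15.5 and 16 kb from its canonical start. The longest of each library, at 7694 and 6123 bp, lay over the start of the neighbouring FAM131B.

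VCL, the vinculin gene, lies at chr10:73995193-74121363 on the plus strand. It had 3 and 8 (set A) and 5 and 3 (set B) FLI1 regions, so the replicates of set A differed more than the sets did. The start locus chr10:73997465-73998330 was among the most even of the shared loci, with folds of 16.5, 11.1, 14.6 and 13.2 (percentiles 87.9, 78.9, 82.0 and 80.3). A second shared locus, in an intron at chr10:74079164-74080685, had folds of 19.6 and 30.0 (set A), against 9.53 and 6.73 (set B). H3K27ac had 2 and 7 regions, and none of replicate 1 overlapped one of replicate 2. At the start, replicate 1 had a region 0.586 kb from the canonical start with a fold of 4.01, and replicate 2 came no nearer than 1.63 kb.

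TLN1, the talin 1 gene, lies at chr9:35696948-35732195 on the minus strand and has 1 start. It had 2 and 1 (set A) and 3 and 2 (set B) FLI1 regions, the lowest mean of the 10 genes. The shared locus at the start, chr9:35731803-35732882, was nevertheless high in each list. Its folds were 12.2 and 18.9 (set A, percentiles 79.9 and 91.1) and 29.0 and 21.3 (set B, percentiles 96.2 and 93.6). The same locus lies within 1 kb of a start of CREB3, transcribed the other way, and the lists do not assign it to 1 of the 2 genes. H3K27ac was not called there: the nearest region was 15.7 kb away in replicate 1 and 4.11 kb in replicate 2. In the 10 kb past the 3′ end both replicates had H3K27ac at the start of TPM2, with folds of 4.99 and 5.41.

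FLNA, the filamin A gene, lies at chrX:154348524-154374634 on the minus strand. It had 8 and 9 (set A) and 4 and 4 (set B) FLI1 regions. Of its 8 loci, 4 were in both set A libraries alone, all in the 10 kb past the 3′ end, and 3 were in all 4. The shared start locus chrX:154370871-154373068 had folds of 41.9 and 24.9 (set A), against 15.0 and 7.4 (set B) (percentiles 97.4 and 94.4 against 83.1 and 41.9). The second, chrX:154368873-154370320, had folds of 16.7, 12.2, 14.3 and 9.93, and came within 1 kb of a start in set A replicate 1 only. Both lie 3.1 to 4.8 kb inside the gene at alternative starts. The canonical start itself had FLI1 within 1 kb in 3 of 4 libraries, and in set B replicate 2 the nearest region was 2.75 kb away. The third shared locus and the H3K27ac regions, 1 and 2, were upstream at the start of the neighbouring EMD.

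PXN, the paxillin gene, lies at chr12:120210439-120265771 on the minus strand. It had 16 and 11 (set A) and 13 and 10 (set B) FLI1 regions, a mean of 12.5 ± 2.65 (SD, n = 4). That is 16.6 ± 3.51 per 100 kb, the 98.4th percentile of all genes, whose median was 1.81. H3K27ac had 12 regions in each replicate, or 15.9 per 100 kb, the 99.6th percentile. By the same measure TNS3 had 1.3 ± 0.677 FLI1 regions per 100 kb (SD, n = 4), the 42.3rd percentile, and PTK2 had 2.2 ± 0.501, the 55.4th. PXN thus stood high per length as well as by count, but not alone. FLI1 density was also high at FLNA (13.6, the 97.2nd percentile), TNS2 (12.0, 96.0th), ZYX (8.38, 91.1st) and TNS4 (7.64, 89.4th). TLN1 had 3.62 (70.9th), VCL 3.25 (67.2nd) and TNS1 1.47 (44.8th).

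Of the 15 PXN loci, 6 were in all 4 libraries, the most of any of the 10 genes. The locus reaching the main start, chr12:120265381-120269499, had folds of 22.7 and 32.1 (set A), against 23.7 and 18.2 (set B). The set B values are those of regions 1.73 kb upstream, and the set B regions at the start itself had folds of 12.0 and 13.3 (percentiles 74.0 and 80.8). The intronic locus chr12:120227963-120233256 was even, with folds of 20.5, 21.1, 25.1 and 20.4. It was the longest of the 74 loci. The alternative start at chr12:120224605-120225983 was higher in set A, at 31.1 and 21.9, than in set B, at 10.8 and 10.5. The distal shared loci were less even still, and the one past the 3′ end lay at the start of RPLP0, a ribosomal protein gene.

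H3K27ac at PXN lay beside FLI1 more than under it. FLI1 covered 21.28 kb in any library and H3K27ac 10.24 kb, with 3.22 kb in common. At the main start, FLI1 lay mostly upstream and H3K27ac downstream, beginning 0.652 kb from the canonical start in replicate 2 and 2.05 kb in replicate 1. In replicate 2 that region had a fold of 7.63 (percentile 97.4). Of the 12 regions of replicate 1, 7 overlapped replicate 2. H3K9me3 had 1 region at the upstream edge of the 10 kb window in replicate 1 and 0 within 10 kb in replicate 2, where the nearest was 10.5 kb from the start. Beyond that window, 17.5 kb upstream, lay a shared FLI1 locus with a GGAA run, chr12:120280339-120285022. Its folds were 52.3 and 52.4 (set A), against 26.9 and 27.5 (set B), and it overlapped an H3K27ac region of each replicate.

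PTK2, the focal adhesion kinase gene, lies at chr8:140657900-141002216 on the minus strand and spans 344 kb. It had 6 and 7 (set A) and 10 and 9 (set B) FLI1 regions, and both set B counts were above both set A counts. With a −log10 q of at least 5 the counts were 5 and 7 against 9 and 7, so that the sets touched. The locus at the main start was in all 4 libraries with folds of 20.5 and 16.1 (set A), against 16.2 and 9.92 (set B). H3K27ac flanked and overlapped it in both replicates, with folds from 3.34 to 6.5 in the 5 regions within 1 kb of that start. An alternative start 44.4 kb downstream had the highest-ranked H3K27ac region within 10 kb of the 10 genes, with a fold of 7.99 in replicate 2 (percentile 98.4) against 4.75 in replicate 1 (percentile 42.6). FLI1 was there in 3 libraries with low folds of 5.58, 6.81 and 4.75.

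PTK2 also had the most H3K9me3 of the 10 genes, 8 and 7 regions. All lay in introns between 3.35 and 114 kb from the canonical start, a stretch that also held H3K27ac regions of both replicates. Other H3K27ac regions lay at the main start or further into the gene. H3K27ac covered 10.67 kb in any library and H3K9me3 18.3 kb, and they shared 0 bp. Counting bases called in both replicates, the lengths were 5.25 and 7.86 kb. The marks were profiled in different sets, and whether they alternate along single molecules cannot be read from the lists. Both marks in both replicates within 10 kb were found at 8.89% of all genes, and among the 10 at TNS1 as well. In the 3′ part of PTK2, 2 further FLI1 loci in all 4 libraries lay side by side 300.3 and 301.6 kb from the start. One had folds of 12.3, 12.2, 10.8 and 10.5, and the other 6.86, 7.34, 14.2 and 14.0, so the first was higher in both set A libraries and the second in both of set B.

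**Figure D3:**
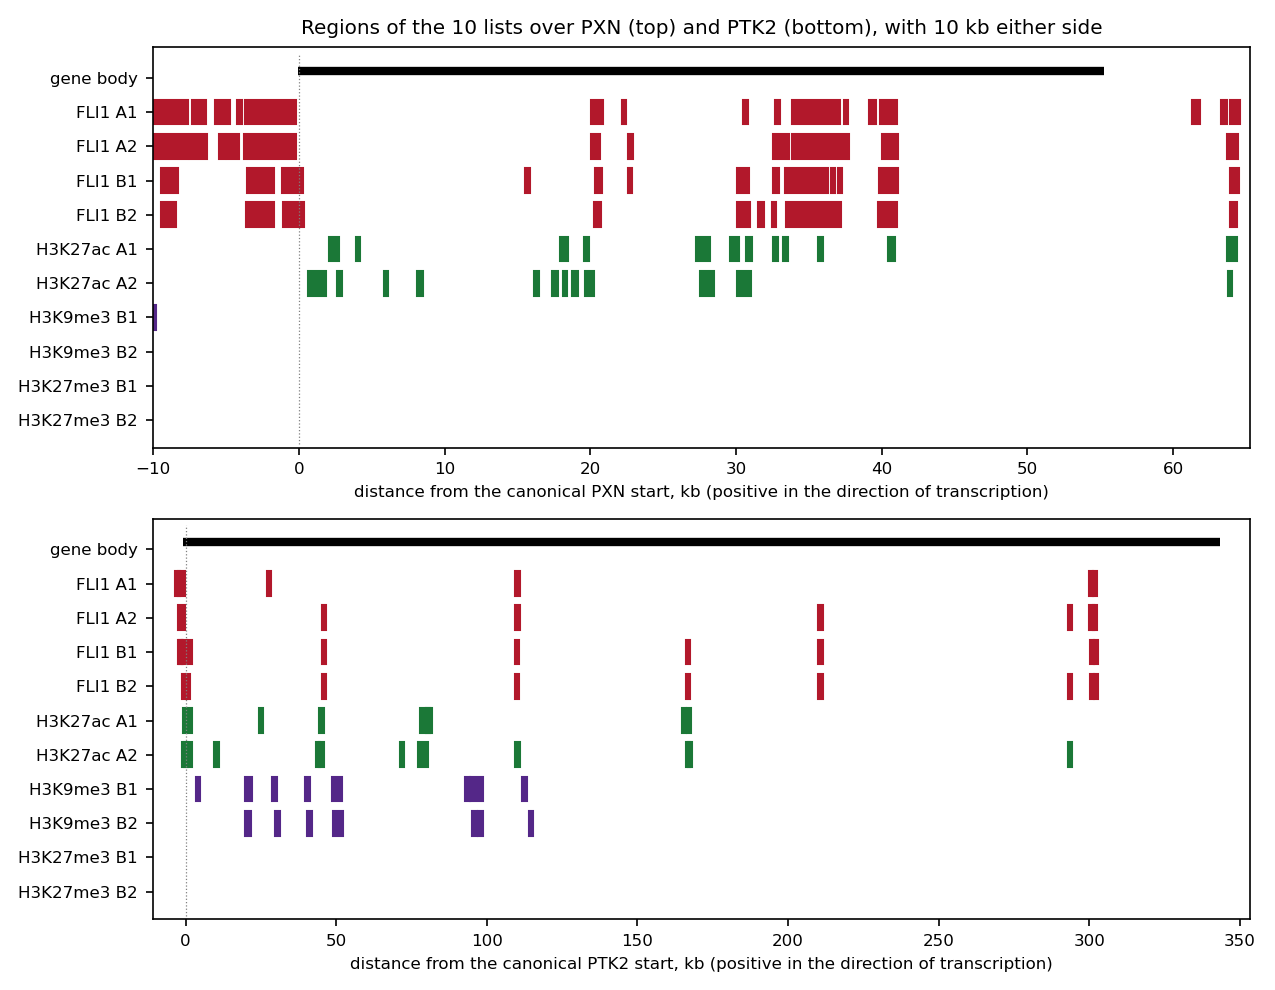
Regions of the 10 lists over PXN (top) and PTK2 (bottom) by distance from each canonical start in kb, positive in the direction of transcription, with 1 row per library and the gene body in black. Short regions are widened to stay visible. At PXN the FLI1 regions stand in blocks shared by the 4 rows upstream and inside the gene, and at PTK2 the H3K9me3 regions lie between those of H3K27ac in the first 114 kb.

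Across the 10 genes, the FLI1 regions within 10 kb merged into 74 loci, of which 23 (31.1%) were in all 4 libraries, against 29.3% of the 55109 FLI1 loci of the series. Both set A libraries alone held 10 (13.5%, against 10.3%) and both set B libraries alone 6 (8.11%, against 7.15%). These shares were near those of the whole series. The shared loci were 10 of the 24 at starts, 8 of the 31 in introns, 4 of the 18 distal loci and the 1 in an exon.

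The shared loci had a median percentile of fold of 76.0, averaged over libraries, against 67.5 for all shared loci of the series. Both set A percentiles were above both set B percentiles at 12 of 23, against 33.0% of all shared loci, and the reverse held at 5 of 23, against 22.1%. The TNS1 repeat, the VCL intron and all 3 FLNA loci were among the 12. Because ranks are within a list, a rank shift between sets is not a change in amount bound.

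**Figure D4:**
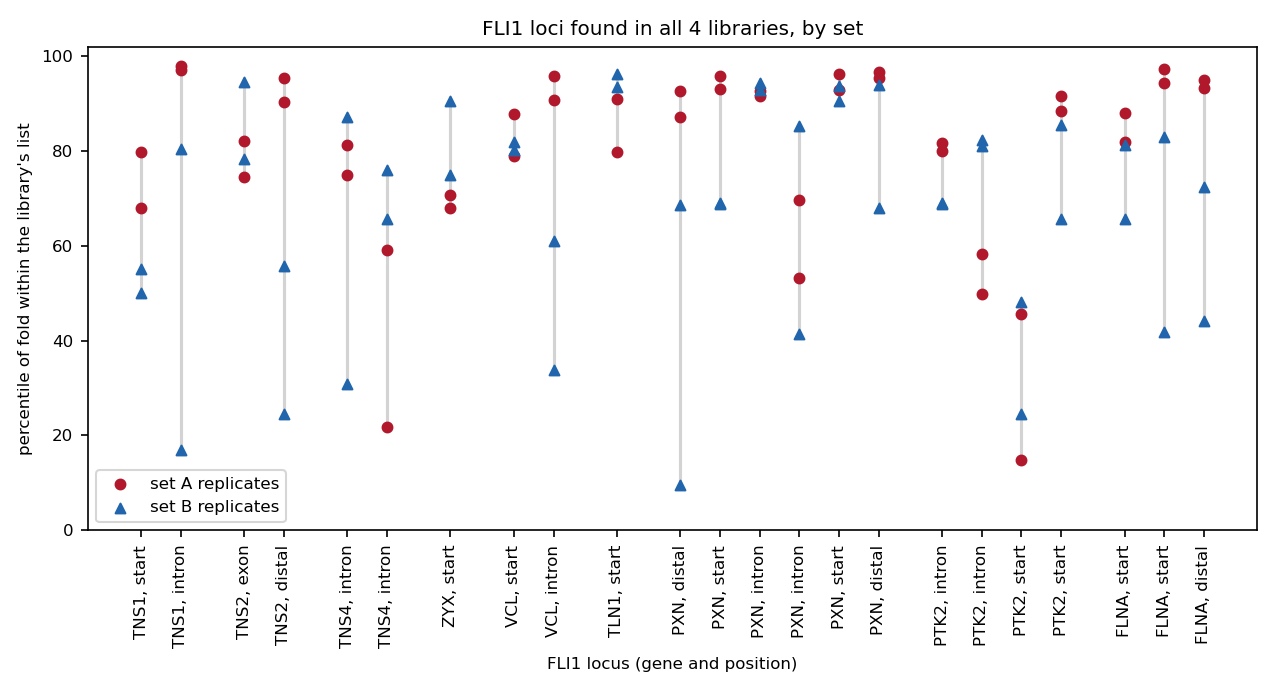
Percentile of fold within each library's own list (vertical axis) for the 23 FLI1 loci found in all 4 libraries (horizontal axis, by gene and position). Circles are set A replicates, triangles set B replicates, and grey lines join the 4 values of a locus. Values run from 9.44 to 98.0, and the first PXN intron and the TLN1 start are high in all 4 libraries, while the TNS1 intron spreads from 17.0 to 98.0.

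H3K27ac in both replicates overlapped 2 of the 23 shared loci (8.70%, against 14.1%), the PTK2 start and the PXN locus at RPLP0. In either replicate it overlapped 9 (39.1%, against 30.8%). The 2 replicates differed at these genes much as in the whole lists. Of 34 regions in replicate 1, 19 (55.9%) overlapped replicate 2, against 62.6% of the whole list. Of 50 in replicate 2, 16 (32.0%) overlapped replicate 1, against 38.6%. Leaving out replicate 2 raised the genes with H3K27ac at a start from 3 to 6 of 10 and the loci from 2 to 6 of 23, and the loci came to 5 without H3K27ac replicate 1 and to 4 without FLI1 set A replicate 1.

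A core GGAA or TTCC lay within 50 bp of the strongest summit at 20 of the 23 shared loci (87.0%), against 70.3% of all shared loci, windows of the same length. Out to 50 kb it was 29 of 43 shared loci, a share no higher than 70.3%. Over all 74 loci within 10 kb it was 54 (73.0%), against 69.2% of all FLI1 loci. The longer ETS motif CCGGAAGT was found on neither strand at any of the 23, against 0.569%, and the AP-1 motif TGANTCA at none, against 2.55%. GGAA lies within CCGGAAGT, so these counts overlap. A run of at least 4 GGAA units within 250 bp of a summit was found at 1 of 23 (4.35%, against 7.58%), the TNS1 intron printed above. Runs of 10 or more were at 5.06% of all shared loci. No TNS3 locus had a run of 4.

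Other genes of the adhesion machinery were read in the same way from a list of 66, in 4 groups by role. FLI1 was at a start in all 4 libraries at 32 of 66 (48.5%, against 38.3% of all genes). H3K27ac was at a start in both replicates at 15 of 66 (22.7%, against 14.9%) and H3K27me3 at 10 of 66 (15.2%, against 11.2%). H3K9me3 was at a start in both replicates at 0 of 66. With H3K27ac in only 1 replicate required, 24 of 66 had it, and with a −log10 q of at least 5 required, H3K27ac was at 7 and H3K27me3 at 3.

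The 18 signalling genes had the most FLI1, at 13 of 18 starts, with H3K27ac at 6 and H3K27me3 at 1. CAV1, the caveolin 1 gene, had folds of 78.1 and 128 (set A), against 48.4 and 37.9 (set B), and percentiles of at least 98.9. PTK2B, the kinase gene most like PTK2, had 24.5, 26.8, 18.4 and 33.9. The kinase gene ROCK2, an effector of RHOA, had 20.9, 23.5, 23 and 13.7. ARHGEF7, which encodes an exchange factor for RAC1 and CDC42, had 44.9, 31.4, 25.4 and 19.5 and also had H3K27me3 at a start in both replicates, though a gene has several starts and these need not be the same.

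The 18 integrin genes stood at the other end, with FLI1 at 4 of 18 starts, H3K27ac at 3 and H3K27me3 at 8. ITGB1, the common beta subunit, had FLI1 folds of 26.5, 25.4, 39.7 and 10.5 together with H3K27ac in both replicates. ITGA5, the alpha subunit of the fibronectin receptor, had 8.57, 4.46, 9.66 and 11.7 and H3K27ac, while ITGB5 and ITGA1 had FLI1 without H3K27ac in either replicate. H3K27me3 covered 5.9 and 4.7 kb at the starts of ITGA11, a collagen receptor subunit, 3.92 and 3.13 kb at ITGA9, 3.52 and 3.53 kb at ITGA8 and 2.5 and 3.16 kb at ITGA2. None of the 8 had FLI1 at a start in all 4 libraries. ITGB4 had it in both set A libraries (folds of 7.81 and 4.46) and ITGB3 in set B replicate 2 (3.92). The matching share over all genes with H3K27me3 at a start was not counted, so no meaning is given to this.

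The 16 linkers to actin had FLI1 at 8 starts, led by LIMS1, KANK2, PARVB and ACTN1. KANK1 was the one linker with H3K27me3 in both replicates, and it had FLI1 and H3K27ac at its starts too. The 14 zyxin-type and other LIM or actin-assembly genes had FLI1 at 7 starts, led by TES, VASP, PDLIM7 and PDLIM5, with H3K27ac at 3 and H3K27me3 at 0. TES had folds of 25.8 and 35.1 (set A), against 11.5 and 17.9 (set B), and VASP had 18, 9.62, 15.8 and 29.2.

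**Figure D5:**
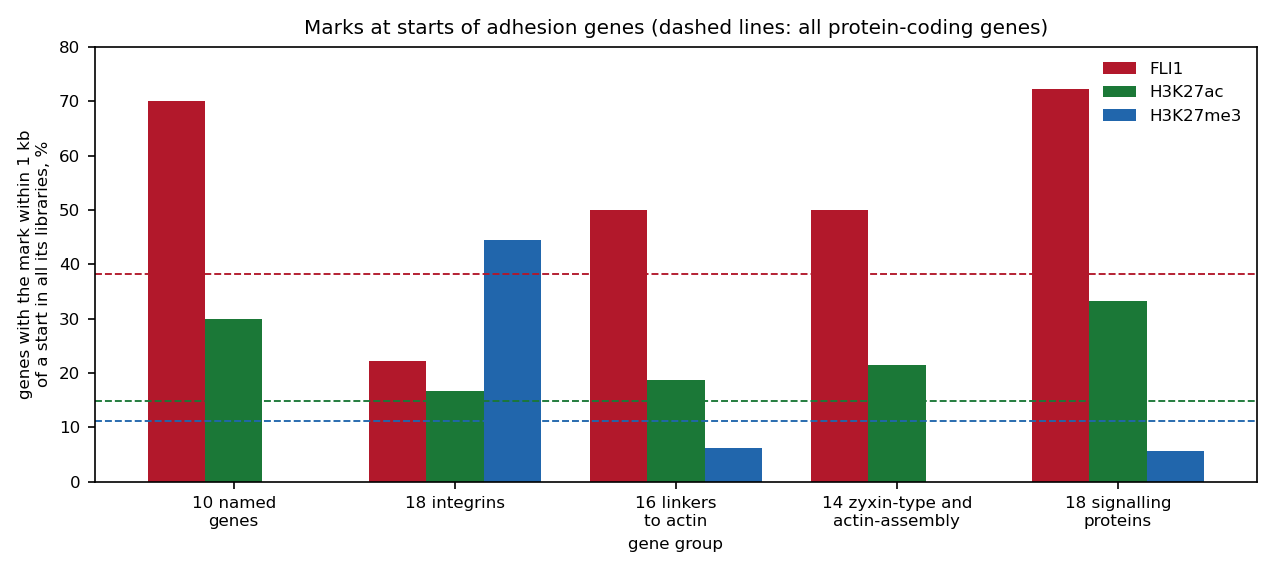
Percent of genes with FLI1 (all 4 libraries), H3K27ac (both) or H3K27me3 (both) within 1 kb of a start (vertical axis) in the 10 named genes and the 4 groups of other adhesion genes (horizontal axis). Dashed lines give all protein-coding genes, at 38.3% for FLI1, 14.9% for H3K27ac and 11.2% for H3K27me3. FLI1 is highest in signalling genes (72.2%) and lowest in integrins (22.2%), where H3K27me3 is highest (44.4%).

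The genes with region counts most like those of TNS3 were found by Euclidean distance of log2(1 + regions within 10 kb) over the 10 lists. They were ZMIZ1 (distance 0.74), SNX18 (0.80), TRAPPC10 (0.93), PSMD9 (1.01) and ST3GAL4 (1.08). ZMIZ1, a gene of 248 kb, had 3 and 9 (set A) and 4 and 2 (set B) FLI1 regions, with 4 and 8 H3K27ac regions. SNX18 reached like counts in 28.8 kb, with FLI1 at 5, 8, 3 and 2 regions. None of the other 9 focal adhesion genes was among these 5.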

How the data were processed

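The authors deposited 10 peak lists, 1 per antibody library, each called without pooling; per the names in the files, the control was the matching IgG library (set and replicate number). Per the submitters' processing notes, which give no roles or order, the tools were cutadapt 4.4, Bowtie2, Picard 2.17.11 and MACS2 2.1.1 and the build GRCh38 (hg38). The deposited fold is the ratio of a region to its control. The deposited −log10 p-values and −log10 q-values are those of the authors' caller, with −log10 q of at least 2.00 in every list. The score column was deposited by the authors and not used.

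On the autosomes and X, rows of 1 list that overlapped were joined, and the joined region took the values of its most significant row. FLI1 loci are regions of the 4 lists merged where they overlapped by at least 1 bp. A start is the start of any protein-coding transcript in GENCODE release 44, with 1 kb either side. A gene counted when each library had a region at any of its starts, which could differ between libraries. Position was called as start, then exon, intron or distal. All shares over genes used 19618 genes. No test was made over the gene lists. Set A and set B counts were compared by exact permutation. All 10 genes and the wider lists were chosen with earlier results of these data known. In the wider lists, up to 4 genes per group were named by mean percentile of FLI1 fold and up to 4 by length of H3K27me3, and 5 genes by likeness to TNS3. The canonical-start counts were added after the data were seen. Sequences were read from hg38, leaving out chromosome 8 and UTRs, and not all that were read are reported here. Counting and overlap were tested on simulated regions. Python 3.11.15, numpy 2.4.6, pandas 2.3.3, pysam 0.24.0, samtools 1.23.1 and matplotlib 3.10.9 were used. Reads and IgG libraries were not analysed here.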

Additional observations from a re-analysis of the deposited data

Results flagged for a closer look

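Among 33 groups of 4 FLI1 libraries that were examined for a sample far from the others, 2 were flagged. By chance the rule flags about 1 in 20 groups of independent normal values. Small tied counts and ranks from sets A and B are not such values, so that rate need not hold here. At ZYX, set A replicate 2 had 4 FLI1 regions within 10 kb, while set A replicate 1 and both set B libraries had 2 each. At the distal PXN locus chr12:120273309-120276407, the percentile of fold was 96.7 and 95.5 in set A and 94.0 in set B replicate 1, but 68.0 in set B replicate 2.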

How the results depend on the processing

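Under the alternatives, 73 values were equal or close to the reported ones, 24 moved further and 0 reversed. The cause was not tested where none is evident from the rule itself. Close values include FLI1 at a start of 9 of the 10 genes with a window of 2.5 kb (7 as reported). For the TNS3 set difference, close meant only the same sign, and no other value could reverse. Counting the annotated gene start only, FLI1 was at 4 of the 10 genes (7 as reported), H3K27ac at 1 (3 as reported) and H3K27ac at 7 of the 66 wider genes (15). A window of 2.5 kb gave H3K27ac at 5 of 10. Presence in any library gave 6 of 10 for H3K27ac, and 52 (FLI1, 32 as reported) and 24 (H3K27ac) of 66. A −log10 q of at least 5 gave 7 of 66 for H3K27ac, 3 of 66 for H3K27me3 (10), 1 gene for H3K9me3 within 10 kb (2) and 0 shared loci with H3K27ac (2). Out to 50 kb there were 6 genes with H3K9me3, 43 shared loci (23), 5 of them with H3K27ac, and 3 with a GGAA run (1). The gene body alone left 1 shared locus with H3K27ac. At 50% cover of the merged locus there were 9 shared loci. H3K27ac in either replicate gave 9 and within 1 kb gave 6. Leaving out 1 library, H3K27ac at starts ranged from 3 to 6 of 10 (6 without replicate 2), H3K9me3 from 2 to 5 (5 without replicate 2), and shared loci with H3K27ac from 2 to 6. The TNS3 set difference ranged from 2.5 to 4.5 regions there, and was 2.0 (exact permutation p 0.667) with a −log10 q of at least 5. With same-numbered libraries as pairs (replicate block, added after the data were seen), the TNS3 difference was 3.5 with differences of 2 and 5 and an exact sign-flip permutation p of 0.5, the smallest 2 pairs allow. Over 19618 genes, deviations of same-numbered FLI1 libraries correlated at -0.023. The labels do not say whether same-numbered libraries share a culture or preparation, and a correlation of region counts cannot decide it. Depth is unknown, so weak or absent regions near the calling threshold limit every count.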
